A study of Homo sapiens with 66 samples.

Results

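The sirtuins are the 7 human genes SIRT1 to SIRT7, taken here by symbol from the 57992 gene identifiers counted in 66 RNA-Seq libraries of 11 AML cell lines. The lines were MONO-MAC-6, F-36P and KASUMI-1 beside THP-1, OCI-AML3, NOMO-1, NB-4, MV-4-11, MOLM-13, HL-60 and OCI-AML2, and each was either left untreated in medium or exposed for 24 h to etoposide, a poison of DNA topoisomerase II. Etoposide was given at the IC50 of the line in question, so concentrations differ between lines, and that of F-36P lay above the range the viability assay had tested. There were 3 libraries per line and treatment, each from the pooled cells of 3 wells, and the series calls them biological replicates. The study placed the first 3 of these in the top quartile of IC50, and they are called resistant here, the other lines responsive. It discarded the treated OCI-AML2 libraries at quality control, so comparisons over lines used 10 lines and OCI-AML2 is given apart. All cells are established lines that differ in karyotype and origin, so 1 line stands for no AML subtype.

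Sirtuins remove acetyl and other acyl groups from lysines of proteins and consume NAD in doing so, which ties them to the supply of NAD. SIRT1, SIRT6 and SIRT7 act mainly in the nucleus, SIRT2 mainly in the cytosol, and SIRT3, SIRT4 and SIRT5 in mitochondria. In leukaemia cells they are best known for SIRT1, which deacetylates p53 and other proteins of the DNA damage response.

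All 7 genes were found in the files, each under 1 Ensembl identifier. On GRCh38 (gencode 44), SIRT1 (ENSG00000096717.11) lies at chr10:67884656-67918390 on the plus strand and SIRT2 (ENSG00000068903.19) at chr19:38878555-38899862 on the minus strand. SIRT3 (ENSG00000142082.14) lies at chr11:215030-236931, minus, SIRT4 (ENSG00000089163.4) at chr12:120302316-120313249, plus, and SIRT5 (ENSG00000124523.15) at chr6:13574227-13615158, plus. SIRT6 (ENSG00000077463.14) lies at chr19:4174109-4182566 and SIRT7 (ENSG00000187531.13) at chr17:81911939-81921323, both minus. Every count covers the whole gene, all exons together, so isoforms were not separated. On its own strand only SIRT7 overlaps another gene, sharing 105 exon bases (1.7%) with MAFG. SIRT5 shares 9.4% of its exon length with a gene on the opposite strand, whose reads are kept apart only if counting was by strand.

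The promoter windows of SIRT1 and SIRT2 are shown because the results below turn on these members: SIRT1 moved in opposite directions between lines, and SIRT2 was raised in nearly all of them. Each holds the 250 bases before the RefSeq start on GRCh38.p14, 5′ to 3′ on the strand of the gene (SIRT1, chr10:67884406-67884655, plus; SIRT2, chr19:38899619-38899868, minus). Capitals mark matches on either strand to 5 motifs. The E-box was searched as CACGTG, the GC box as GGGCGG and the CCAAT box by its name. The ETS motif was searched as CCGGAAG. The E2F core was searched in the forms TTCCCGC as well as TTGGCGC, and further in the form TTCGCGC and in the form TTGCCGC. Neighbouring or overlapping GC boxes form 1 run of capitals.
SIRT1: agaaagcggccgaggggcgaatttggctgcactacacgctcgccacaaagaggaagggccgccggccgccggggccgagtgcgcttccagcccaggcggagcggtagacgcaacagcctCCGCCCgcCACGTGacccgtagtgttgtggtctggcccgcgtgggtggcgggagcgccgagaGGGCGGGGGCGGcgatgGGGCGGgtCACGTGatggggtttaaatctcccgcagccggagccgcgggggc
SIRT2: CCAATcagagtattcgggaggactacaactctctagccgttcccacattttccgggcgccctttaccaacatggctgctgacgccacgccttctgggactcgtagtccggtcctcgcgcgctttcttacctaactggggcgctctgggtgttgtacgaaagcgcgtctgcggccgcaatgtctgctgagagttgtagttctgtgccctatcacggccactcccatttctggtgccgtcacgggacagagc
The SIRT1 window had a GC content of 72.0% and that of SIRT2 58.4%, where the median over all RefSeq promoter windows of this length was 58.0%. SIRT1 held 2 E-boxes, beginning 123 and 44 bases before the start, and 4 GC boxes. No CCAAT box, ETS motif or E2F core matched in the SIRT1 window. SIRT2 held neither E-box nor GC box and had a single CCAAT box at the far end of its window. Of 35114 promoter windows, 6.3% held an E-box, 42.6% a GC box, 32.0% a CCAAT box, 8.5% the ETS motif and 10.9% an E2F core. Of the 6 sirtuins with a RefSeq entry, SIRT1 alone had an E-box. These are matches of letters only and were not tested for binding.

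Library depth was even, at 17997404 to 24101670 reads on genes with a median of 20241014, which gave each sirtuin except SIRT4 at least 100 reads in every library. The leukocyte marker PTPRC and the myeloid markers CD33 and SPI1 were above 1 CPM (counts-per-million) in all 11 untreated lines. In F-36P, an erythroid line, MPO and CEBPA were below 1 CPM, and the erythroid genes GATA1, KLF1, HBG2 and ALAS2 were at their highest of all lines. Of 6 markers of other cells, EPCAM reached 81.9 CPM in untreated KASUMI-1 and NKG7 164.8 CPM in MONO-MAC-6, the others staying at or below 3.30 CPM. CDKN1A, the p21 gene that responds to DNA damage, rose past 2-fold in all 10 lines. In OCI-AML2 it rose by 0.73 ± 0.06 (log2, SE).

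Basal sirtuin levels were compared first. In untreated cells all 7 sirtuins differed between the 11 lines (quasi-likelihood F test over 33 libraries, FDR at most 2.89e-06), as did 99.4% of the 18130 genes tested. The distance from the highest to the lowest line was 2.03-fold for SIRT1 and 6.18-fold for SIRT4, and the others lay between these. For the 11712 genes above 0 in every line the median distance was 3.61-fold. In bulk RNA, fewer cells of a kind and less RNA per cell cannot be told apart.

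Among the nuclear sirtuins, SIRT1 was highest in NB-4 at 56.1 ± 3.94 CPM (mean ± SD, n = 3 libraries in all lines that follow) and lowest in OCI-AML3 at 27.6 ± 2.91 CPM. The 3 NB-4 libraries (53.5, 54.2 and 60.6 CPM) stood above those of every other line. MONO-MAC-6 (47.0 CPM), KASUMI-1 (41.6), MV-4-11 (40.8), NOMO-1 (39.3) and OCI-AML2 (37.5) followed, with overlapping libraries from each to the next. HL-60 (34.8 CPM) and MOLM-13 overlapped, and so did THP-1 (30.6), F-36P (30.5) and OCI-AML3. SIRT6, which binds chromatin at telomeres and at DNA breaks, was highest in F-36P (43.5 ± 7.92 CPM) and MV-4-11 (40.1 ± 2.75), whose libraries overlapped. It was lowest in KASUMI-1 (15.9 ± 1.62 CPM). SIRT7, the nucleolar member that acts at ribosomal DNA, ranged from 99.1 ± 5.36 CPM in MONO-MAC-6 to 31.4 ± 1.59 CPM in NOMO-1, with THP-1 (87.2 ± 4.03) second.

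The cytosolic SIRT2, a deacetylase of tubulin and of mitotic regulators, was highest in MONO-MAC-6 (31.8 ± 0.92 CPM) and MOLM-13 (27.2 ± 1.71), which did not overlap. The 7 lines from F-36P (21.5 CPM) to OCI-AML2 (18.3 CPM) each overlapped the next. HL-60 (11.7 ± 0.62 CPM) and NB-4 (7.71 ± 0.53 CPM) stood below them and apart from each other. NB-4 thus held the highest SIRT1 and the lowest SIRT2 of the 11 lines.

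Of the mitochondrial members, SIRT3, the main deacetylase of that compartment, was highest in F-36P (21.9 ± 3.29 CPM) and lowest in OCI-AML2 (7.06 ± 0.57 CPM). SIRT5, which removes succinyl and malonyl groups, was highest in HL-60 (29.5 ± 3.54 CPM) and NOMO-1 (25.2 ± 1.98), whose libraries overlapped, and lowest in F-36P (6.64 ± 0.83) and THP-1 (6.54 ± 0.32). SIRT4, which acts on enzymes of glutamine and pyruvate use, reached at most 1.12 ± 0.16 CPM, in MOLM-13. In OCI-AML2 it was at 0.18 ± 0.03 CPM, which rested on 11 reads over 3 libraries.

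**Figure D1:**
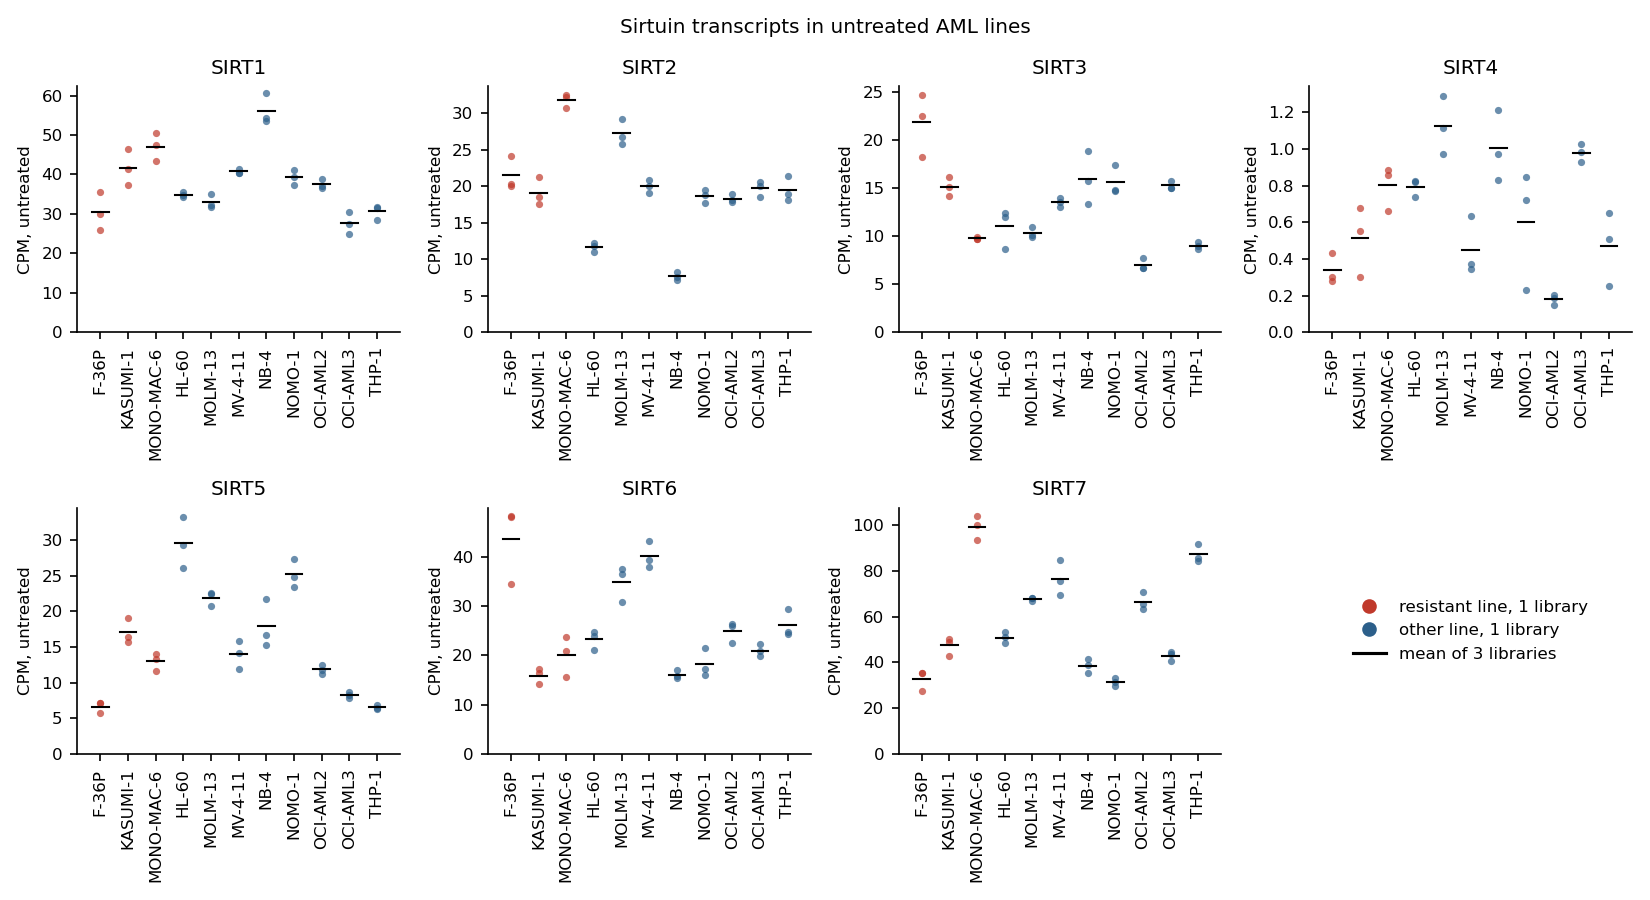
Normalized counts-per-million (CPM, y axis from 0) of each sirtuin in single untreated libraries of 11 AML lines, with the mean of 3 libraries as a bar and the 3 resistant lines in red. SIRT7 reached 99.1 CPM in MONO-MAC-6, SIRT1 56.1 CPM in NB-4, and SIRT4 did not pass a mean of 1.12 CPM in any line.

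Levels can be set side by side between genes only per length. On the scale of CPM per kilobase of exon, the medians over lines were 8.45 for SIRT6, 8.28 for SIRT7 and 8.21 for SIRT1. SIRT2 followed at 3.14, SIRT3 at 2.44, SIRT5 at 1.24 and SIRT4 at 0.49 CPM per kilobase. The nuclear members led in every line: SIRT6 was first in 5 lines, SIRT1 in 3 and SIRT7 in 3. SIRT4 was last in 10 lines and SIRT5 in OCI-AML3. The exon length counts all annotated exons and may exceed that of the transcripts present.

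The members did not rise and fall together across untreated lines. Over 11 lines, the 21 pairwise correlations of mean log2(CPM + 1) reached from -0.78 (SIRT3 and SIRT7) to 0.46 (SIRT2 and SIRT7). The genes most like each sirtuin over these lines, by Pearson r among 12124 coding genes, were ADPRHL1 (0.86), ASCC1 and LRP5 (both 0.85) for SIRT1 and SNX16 (0.93), TMEM184C (0.91) and NRIP3 (0.90) for SIRT2. For SIRT3 they were SSU72 (0.95), CRTC3 (0.90) and HMCES (0.90), for SIRT4 FCRLB (0.89), GBE1 (0.85) and PRR7 (0.84), and for SIRT5 DHRS7 (0.93), PARP16 (0.93) and SLX4IP (0.88). SIRT6 was most like BORCS8 (0.92), USE1 (0.88) and DPM2 (0.88), and SIRT7 most like RMI1 (0.92), MTO1 (0.91) and TMF1 (0.91). With 11 points and this many genes, high values of r arise by selection, and they are given as descriptions.

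Whether basal sirtuin levels set the resistant lines apart was then asked. No member differed between the 3 resistant and the 8 other lines (exact permutation test over all splits, two-sided), with exact p-values of 0.20 to 0.93, where 10.4% of 13670 genes had an exact p below 0.05. SIRT2 came nearest, at a mean log2(CPM + 1) of 4.62 ± 0.37 (SD, n = 3) against 4.16 ± 0.52 (n = 8), a difference of 0.45 (exact p = 0.20). For SIRT1 the difference was 0.08 (exact p = 0.70). The resistant lines themselves spanned most of the range for SIRT3, SIRT6 and SIRT7.

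After etoposide, 22 of the 69 tested pairs of a sirtuin and a line were higher and 5 were lower at an FDR below 0.05 (quasi-likelihood test of edgeR in each line on its own, the FDR being the Benjamini-Hochberg adjusted p over all genes tested), or 31.9% and 7.25%. Fold changes are on the log2 scale after TMM normalization, which centres most genes on no change, and p-values measure the spread between the 3 libraries of a group. Of all 143149 gene and line pairs tested in these 10 lines, 27.7% were higher and 24.4% lower, 52.1% in all. The share of higher calls was thus close to the background, the share of lower calls below it, and the median log2 fold change of the sirtuin pairs was 0.17, where that of all pairs was 0.011. Changes were small: 2 pairs (2.90%) passed both the FDR and the 2-fold minimum that the study used, against 15.0% of all pairs. SIRT4 in F-36P, the pair left out, fell below the read count minimum. Some other SIRT4 pairs met that minimum only through the treated libraries, which favoured a rise, and they feed the share of higher pairs.

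The lines differed in how many of the 7 members changed. In MV-4-11, 4 were higher and 2 lower, where 33.5% and 30.4% of all genes tested were. KASUMI-1 (31.5% of genes higher and 28.6% lower) and NB-4 (31.0% and 28.7%) each had 4 higher and 0 lower, and MONO-MAC-6 (31.8% and 30.5%) had 3 higher and 1 lower. MOLM-13 (28.1% each way) had 2 higher and 1 lower, OCI-AML3 (22.4% and 17.7%) 2 higher, and THP-1 (16.1% and 16.0%) 1 higher and 1 lower. F-36P had 1 higher of 6 members tested, though 35.0% of its genes were higher and 25% lower. NOMO-1 (28.8% and 23.9%) had 1 higher, and HL-60 (17.5% and 15.0%) 0 of 7 in either direction. In HL-60 no member had an unadjusted p below 0.05, and neither DESeq2 nor the exact test of edgeR made a call. Scaling by library size alone moved the median log2 fold change of all genes up by 0.10 to 0.25 in HL-60, MONO-MAC-6, MV-4-11, KASUMI-1, NB-4 and F-36P. It raised the share of higher calls among all calls there, from 53.8% to 72.7% in HL-60, 51.1% to 63.9% in MONO-MAC-6, 52.4% to 66.6% in both MV-4-11 and KASUMI-1, 51.9% to 71.4% in NB-4 and 58.3% to 74.1% in F-36P.

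**Figure D2:**
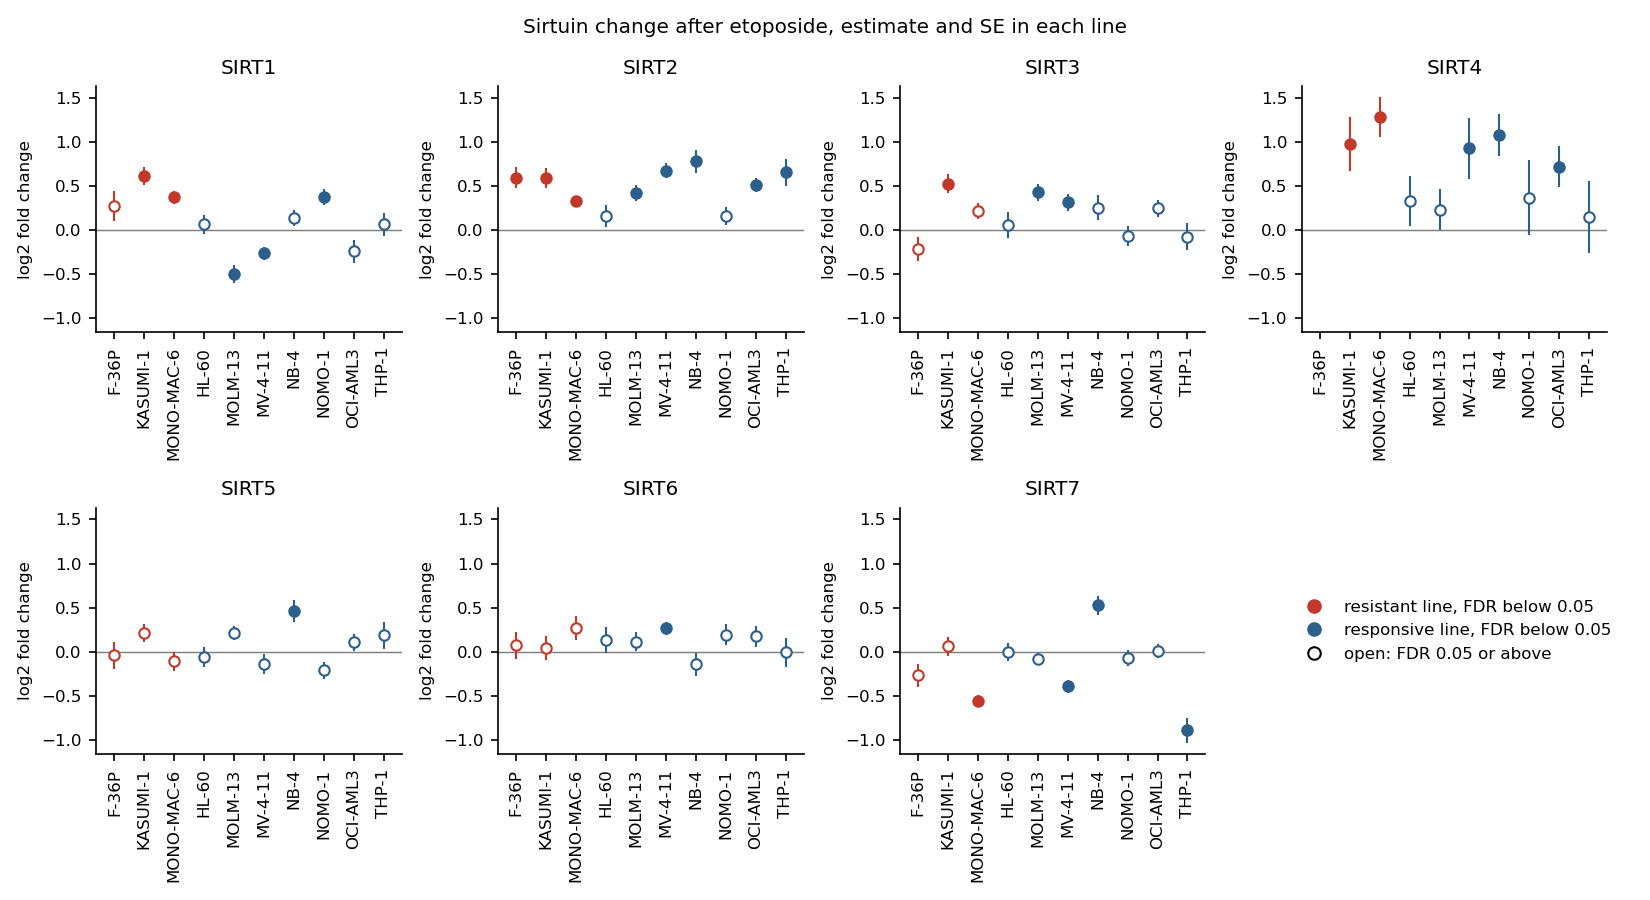
Log2 fold change after etoposide (y axis, estimate with its SE) of each sirtuin in 10 AML lines, filled where the FDR was below 0.05 and red for the 3 resistant lines. SIRT2 lay above 0 in all 10 lines, SIRT1 reached from -0.50 in MOLM-13 to 0.61 in KASUMI-1, and SIRT7 from -0.90 in THP-1 to 0.52 in NB-4.

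SIRT2 was the member that moved most uniformly, higher in 8 lines and lower in 0. In NB-4, the line with the lowest basal level, its untreated libraries held 7.57, 8.68 and 8.08 CPM and its etoposide libraries 12.8, 15.8 and 13.2 CPM, a rise of 0.78 ± 0.13 (log2, SE; FDR = 0.000126). In MV-4-11 it went from 21.3, 22.4 and 20.4 CPM to 31.3, 32.7 and 38.2 CPM (0.67 ± 0.09, FDR = 6.79e-07). Neither line had overlapping libraries. In THP-1, SIRT2 rose from 19.5, 18.7 and 22.0 CPM to 25.9, 37.4 and 31.4 CPM (0.65 ± 0.15, FDR = 0.00292). In F-36P it rose from 24.4, 21.7 and 21.9 CPM to 34.2, 35.0 and 33.7 CPM (0.60 ± 0.12, FDR = 0.00146). In both, every treated library lay above every untreated one.

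SIRT2 also rose in KASUMI-1, from 17.6, 18.6 and 21.0 CPM to 26.3, 32.3 and 27.3 CPM (0.59 ± 0.11, FDR = 0.00157), and in OCI-AML3, from 20.8, 19.8 and 18.9 CPM to 28.0, 27.5 and 29.5 CPM (0.51 ± 0.08, FDR = 0.00122). The rise was smaller in MOLM-13, from 28.0, 25.7 and 24.8 CPM to 31.6, 36.9 and 36.4 CPM (0.42 ± 0.09, FDR = 0.00269). It was smallest of the called ones in MONO-MAC-6, the line with the highest basal level, from 33.7, 32.0 and 33.6 CPM to 39.7, 42.7 and 42.2 CPM (0.33 ± 0.06, FDR = 0.000633). The lines without a call were HL-60 (0.16 ± 0.13, FDR = 0.36) and NOMO-1 (0.16 ± 0.10, FDR = 0.20). HL-60 had the lowest basal level after NB-4 (11.7 CPM). Basal level and fold change share the untreated libraries, so a link between them is partly built in, and it was not tested. Libraries did not overlap in 9 of the 10 lines, NOMO-1 being the exception, where 59.8% of all gene and line pairs did not overlap.

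Over the 10 lines the mean log2 fold change of SIRT2 was 0.49 ± 0.21 (SD), or 1.40-fold, positive in 10 of 10 lines. The exact sign-flip permutation test gave p = 0.00195, the smallest that the flips of 10 lines allow, and 0.00991 after Benjamini-Hochberg adjustment over 10588 genes. The adjusted p was below 0.05 for 43.3% of those genes. Its mean lay above that of 88.4% of these genes, and its SD over lines was lower than that of most (19.3% had a lower one). The size of the rise still differed between lines (F = 4.88, FDR = 0.000201, quasi-likelihood interaction test over 60 libraries), a test that 74.5% of genes passed. The sign and the 8 calls of SIRT2 were the same by count with TMM, RLE and library size scaling. With library size scaling the number of lines with a positive estimate went from 7 to 8 for SIRT3, from 8 to 10 for SIRT6 and from 3 to 4 for SIRT7.

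SIRT1 went both ways. Its largest rise was in KASUMI-1, from 46.5, 37.4 and 40.9 CPM to 66.6, 59.6 and 64.7 CPM (0.61 ± 0.10, FDR = 0.000546). In MONO-MAC-6 it rose from 52.4, 45.1 and 49.2 CPM to 65.6, 58.4 and 65.8 CPM (0.37 ± 0.07, FDR = 0.000728), and in NOMO-1 from 46.1, 43.9 and 41.9 CPM to 52.5, 61.1 and 57.4 CPM (0.37 ± 0.09, FDR = 0.00442). None of these 3 lines had overlapping libraries. SIRT1 fell in MOLM-13, from 33.7, 30.6 and 31.0 CPM to 25.6, 20.2 and 21.7 CPM (-0.50 ± 0.10, FDR = 0.00183), a loss of 29.1%. In MV-4-11 it fell from 43.0, 43.4 and 44.4 CPM to 40.0, 33.7 and 35.1 CPM (-0.27 ± 0.07, FDR = 0.00355). There too the libraries did not overlap, but the MV-4-11 call was lost with library size scaling (-0.14, FDR = 0.116) and in a fit of all 60 libraries (-0.22, FDR = 0.111).

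The other lines gave no SIRT1 call in the per-line test with TMM. With library size scaling SIRT1 was higher in 5 lines and lower in 1, F-36P (0.52, FDR = 0.0136) and NB-4 (0.34, FDR = 0.00444) being added, and F-36P also passed in the fit of 60 libraries (0.32, FDR = 0.00956). OCI-AML3 was at -0.24 ± 0.13 (FDR = 0.18), and at -0.37 (FDR = 0.049987) without etoposide replicate 1. F-36P was at 0.27 ± 0.17 (FDR = 0.19), with untreated libraries at 26.3, 32.1 and 38.9 CPM and treated ones at 44.5, 33.3 and 39.6 CPM that overlapped. NB-4 (0.13), HL-60 (0.07) and THP-1 (0.07) gave estimates near 0, with overlapping libraries. The response of SIRT1 differed between lines (F = 9.18, FDR = 1.43e-07). Its mean over the 10 lines was 0.09 ± 0.34 (exact sign-flip permutation p = 0.42).

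**Figure D3:**
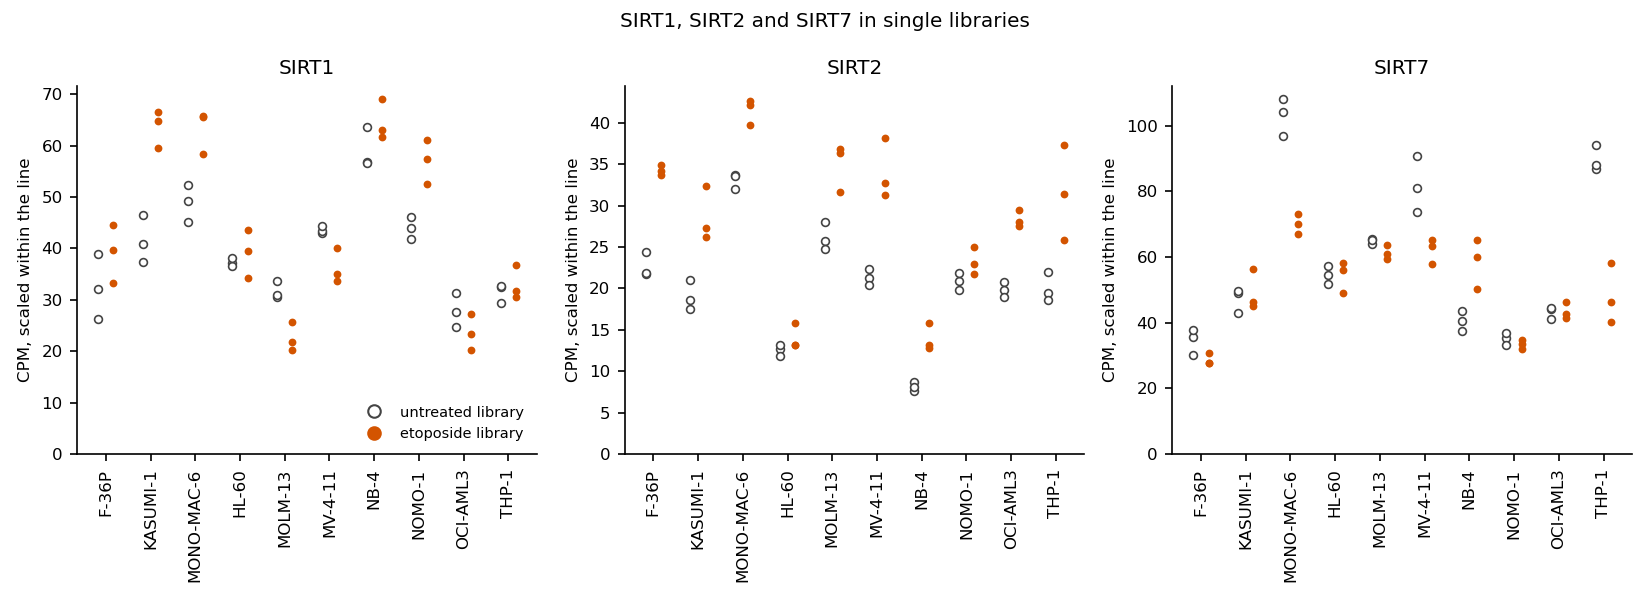
Normalized counts-per-million of SIRT1, SIRT2 and SIRT7 (y axes from 0, scaled within each line) in single untreated (open) and etoposide (filled) libraries of 10 lines, 3 of each. SIRT2 libraries did not overlap in 9 lines, whereas SIRT1 and SIRT7 moved up in some lines and down in others.

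SIRT7 showed the largest fall and the most uneven response of the family (interaction F = 15.5, FDR = 5.50e-11). In THP-1 it fell from 86.8, 88.1 and 94.0 CPM to 46.2, 58.1 and 40.2 CPM (-0.90 ± 0.14, FDR = 9.99e-05), or by 46.3%. It fell in MONO-MAC-6, from 97.0, 108 and 104 CPM to 67.0, 70.2 and 73.0 CPM (-0.56 ± 0.06, FDR = 5.47e-06), and in MV-4-11, from 73.6, 81.2 and 90.7 CPM to 57.8, 65.3 and 63.4 CPM (-0.40 ± 0.07, FDR = 7.40e-05). These were the 3 lines with the highest basal SIRT7, and none had overlapping libraries. Basal level and fold change share the untreated libraries, so a link between them is partly built in, and it was not tested. In NB-4, SIRT7 rose from 40.5, 43.6 and 37.6 CPM to 50.1, 65.0 and 59.9 CPM (0.52 ± 0.11, FDR = 0.000693). F-36P gave -0.27 ± 0.13 (FDR = 0.10), and -0.47 (FDR = 0.00675) without untreated replicate 3. The remaining 5 lines lay between -0.08 and 0.06.

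SIRT6 was the steadiest member. Its 10 log2 fold changes lay between -0.15 in NB-4 and 0.27 in MONO-MAC-6, and only 1.79% of the genes compared over 10 lines varied less, by SD. It passed the test in MV-4-11, going from 40.3, 42.3 and 46.2 CPM to 46.0, 52.2 and 56.3 CPM (0.26 ± 0.08, FDR = 0.00573), with libraries that overlapped, and the call was lost in a fit of all 60 libraries (0.31, FDR = 0.10). MONO-MAC-6 passed with no filter on low counts (0.26, FDR = 0.00832) and with library size scaling (0.39, FDR = 0.0289). Leaving out 1 library gave a call in MONO-MAC-6 (0.40 without untreated replicate 2, FDR = 0.0140, and 0.37 without etoposide replicate 1, FDR = 0.0413) and in NOMO-1 (0.32 without untreated replicate 3, FDR = 0.0380). No difference in response between lines was found (F = 0.53, FDR = 0.87). The mean rise over lines, 0.11 ± 0.13, gave an exact sign-flip permutation p of 0.0293 and an adjusted p of 0.063, being positive in 8 of 10 lines. Of all genes compared, 51.9% had such a p below 0.05, 21.7% with a higher mean.

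Among the mitochondrial sirtuins SIRT3 was higher in 3 lines and lower in 0. It rose in KASUMI-1 from 14.2, 16.2 and 15.0 CPM to 19.3, 23.6 and 22.5 CPM (0.53 ± 0.11, FDR = 0.00244), in MOLM-13 from 9.52, 10.6 and 9.70 CPM to 13.0, 13.8 and 13.4 CPM (0.43 ± 0.10, FDR = 0.00421), and in MV-4-11 from 14.4, 14.1 and 15.0 CPM to 16.6, 18.4 and 19.0 CPM (0.31 ± 0.09, FDR = 0.00575). All 3 had separate libraries. In NB-4 its 0.25 ± 0.14 (FDR = 0.14) passed once the replicate number, which pairs the libraries of that line, entered the fit as a block (0.25, FDR = 0.0340). With library size scaling SIRT3 also passed in NB-4 (0.46, FDR = 0.0139) and MONO-MAC-6 (0.33, FDR = 0.00883), in the fit of 60 libraries in NB-4 (0.30, FDR = 0.0287), and with the 5 CPM filter in MONO-MAC-6 (0.22, FDR = 0.0474) and OCI-AML3 (0.28, FDR = 0.0424). Leaving out 1 library also gave a SIRT3 call in NB-4 (0.38, FDR = 0.0395, without untreated replicate 2 and 0.37, FDR = 0.0384, without etoposide replicate 1), MONO-MAC-6 (0.27, FDR = 0.0378) and OCI-AML3 (0.30, FDR = 0.0465), in the last 2 lines without etoposide replicate 1. F-36P showed the lowest value, -0.21 ± 0.14 (FDR = 0.20), which became -0.42 (FDR = 0.0199) without untreated replicate 3.

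SIRT4 was higher in 5 of the 9 lines tested and held both changes past 2-fold. In MONO-MAC-6 it went from 18, 18 and 14 reads to 38, 45 and 53 reads, or 0.92, 0.90 and 0.69 CPM to 1.69, 2.09 and 2.32 CPM (1.28 ± 0.23, FDR = 0.000381). In NB-4 it went from 25, 16 and 18 reads to 47, 47 and 55 reads (1.08 ± 0.24, FDR = 0.00122). Libraries did not overlap in either line. The calls in KASUMI-1 (0.97 ± 0.31, FDR = 0.0202), MV-4-11 (0.93 ± 0.35, FDR = 0.0256) and OCI-AML3 (0.72 ± 0.23, FDR = 0.0363) rested on as few as 6, 7 and 19 reads in a library. The Wald test of DESeq2 made none of these 3 calls (FDR = 0.0628, 0.0959 and 0.103). In KASUMI-1 (6, 13 and 10 untreated reads) and MV-4-11 (7, 7 and 13) the untreated libraries alone did not meet the read count minimum. Both pairs entered the test through the treated libraries, which favoured a rise.

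Those weaker SIRT4 calls were also lost when single libraries were left out, which lowers the power of the test as well. In KASUMI-1 the FDR was 0.0878 without untreated replicate 1 (0.69) and 0.0614 without etoposide replicate 3 (0.93). In MV-4-11 it was 0.116, 0.0865 and 0.11 without untreated replicate 1 (0.75), untreated replicate 2 (0.81) and etoposide replicate 1 (0.74). In OCI-AML3 it was 0.11, 0.0925 and 0.0831 without untreated replicates 1, 2 and 3 (0.68, 0.71 and 0.75), and 0.0849 and 0.11 without etoposide replicates 2 and 3 (0.72 and 0.54). The 9 estimates of SIRT4 were all positive. Part of this was favoured by the filter. As in KASUMI-1 and MV-4-11, the untreated libraries of NOMO-1 (5, 19 and 15 reads) and THP-1 (10, 13 and 5) alone did not meet the minimum. A difference in response between lines was not detectable at this depth (F = 1.82, FDR = 0.11), though it passed with library size scaling (F = 2.42, FDR = 0.0314).

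SIRT5 changed in NB-4, from 17.5, 16.0 and 22.9 CPM to 25.8, 25.6 and 26.0 CPM (0.46 ± 0.13, FDR = 0.00598), with treated libraries above the untreated ones. Its other estimates were divided, 4 above 0 and 5 below, from -0.22 in NOMO-1 to 0.21 in KASUMI-1 and MOLM-13. Other settings added calls. KASUMI-1 passed with a filter at 5 CPM (0.30, FDR = 0.0296), with library size scaling (0.39, FDR = 0.0109), in a fit of all 60 libraries (0.26, FDR = 0.0430) and without untreated replicate 3 (0.29, FDR = 0.0432). MOLM-13 passed with the 5 CPM filter (0.26, FDR = 0.0197), RLE scaling (0.22, FDR = 0.0450) and the fit of 60 libraries (0.27, FDR = 0.0400), and NOMO-1 without etoposide replicate 1 (-0.28, FDR = 0.0382). The interaction test passed (F = 4.29, FDR = 0.000642). Over the 10 lines its mean was 0.06 ± 0.21 (exact sign-flip permutation p = 0.41), and the number of positive lines went from 5 to 8 with library size scaling. Across the 10 lines the responses of SIRT5 and SIRT6 ran opposite (r = -0.85, n = 10 lines), and those of SIRT2 and SIRT5 ran together (r = 0.62), both pairs measured in shared libraries.

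The resistant lines were next set beside the responsive ones. The mean log2 fold change of SIRT1 was 0.42 ± 0.18 in the 3 resistant lines (0.27 to 0.61) and -0.05 ± 0.30 in the 7 responsive ones (-0.50 to 0.37), a difference of 0.47 (exact permutation over 120 splits, p = 0.0333). After adjustment over 10588 genes p was 0.25, and 16.0% of these genes had an exact p below 0.05. The classes overlapped, since NOMO-1 rose as much as MONO-MAC-6 did. The exact p was 0.11 without F-36P and 0.0833 without replicate 1 of every group. For SIRT2 the resistant lines averaged 0.50 and the responsive ones 0.48, and the exact permutation p of the other 5 members tested lay between 0.66 and 0.93. The resistant lines were not alike: SIRT7 was at -0.56 in MONO-MAC-6 and 0.06 in KASUMI-1, and SIRT3 at 0.53 in KASUMI-1 and -0.21 in F-36P.

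In OCI-AML2, 0 of 6 members tested were called by edgeR, where 0.0221% of its 13604 genes were. Their log2 fold changes lay between -0.15 (SIRT6) and 0.08 (SIRT5 and SIRT1), and no member had an unadjusted p below 0.05. SIRT4 was counted there at 4, 3 and 4 reads before and 1, 3 and 0 reads after etoposide.

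The genes around the sirtuins were then described, beginning with those that make NAD. Of 111 tested pairs of a NAD synthesis gene and a line, 48.6% were higher and 21.6% lower, with a median log2 fold change of 0.37. Of all gene and line pairs, 27.7% were higher and 24.4% lower. HAAO, an enzyme of NAD synthesis from tryptophan, rose in all 9 lines in which it was tested, by 0.54 in THP-1 to 2.26 in KASUMI-1, where it went from 4.76 to 22.9 CPM. NMNAT2, which joins nicotinamide mononucleotide to adenylate, rose in 5 of 6 lines, and in F-36P, where it was nearly absent, from 0.019 to 2.49 CPM. KMO, upstream of HAAO on the same route, rose in 4 of 7 lines, most in F-36P (3.89). Before treatment NMNAT2 and KMO (0.13 CPM) lay under the read count minimum in F-36P. They entered the test there through the treated libraries, so a rise was fixed in advance. Such pairs also feed the share of higher pairs above.

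NAMPT, the rate-limiting enzyme of the salvage route that returns the nicotinamide released by sirtuins to NAD, rose in 5 lines. It went from 18.9 to 82.2 CPM in NOMO-1 (2.12), 66.9 to 169 CPM in HL-60 (1.34) and 94.9 to 196 CPM in MONO-MAC-6 (1.04), and rose less in THP-1 (0.89) and NB-4 (0.59). It fell in MOLM-13 (-0.60) and MV-4-11 (-0.22), the same lines in which SIRT1 fell. SIRT1 also rose in NOMO-1 and MONO-MAC-6, but other lines did not match. In KASUMI-1, where SIRT1 rose most, NAMPT was not called (0.24, FDR = 0.12). In HL-60 and THP-1, where NAMPT rose, SIRT1 was at 0.07. A link between NAMPT and SIRT1 was not tested. NMNAT1, the nuclear enzyme of the last step and chosen after its values were seen, rose in 10 of 10 lines, by 0.69 to 1.13. NMNAT3, the mitochondrial enzyme of that step and likewise chosen afterwards, fell in 6 of 7 lines, down to -1.48 in F-36P, and rose in MOLM-13 (0.74). AFMID, of the tryptophan route and likewise chosen afterwards, fell in 8 of 10 lines, down to -0.80 in F-36P.

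For genes that use or move NAD, 28.2% of 78 pairs were higher and 30.8% lower, where 27.7% and 24.4% of all gene and line pairs were. SARM1, an NAD hydrolase, fell in 5 of 8 lines and rose in F-36P, from 0.32 to 1.47 CPM (2.17). BST1, a surface NAD glycohydrolase of myeloid cells, rose in 5 of 10 lines, up to 1.47 in NB-4. NNMT, which methylates nicotinamide, was tested in F-36P alone and went there from 0.19 to 0.72 CPM (1.88). Its untreated level lay under the read count minimum, so it entered the test through the treated libraries and a rise was fixed in advance. The same holds for SARM1 in F-36P and for BST1 in NB-4 (0.30 CPM untreated). In NOMO-1, 1 of the lines with a SARM1 fall, the treated level lay under that minimum (0.84 to 0.37 CPM). That pair entered through the untreated libraries, which favoured a fall.

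Of the SIRT1 regulators 27.4% of 117 pairs were higher and 29.1% lower, near the 27.7% and 24.4% of all gene and line pairs. BCL6, a repressor that acts with SIRT1, rose in 9 of 10 lines, up to 2.95 in NB-4 (0.62 to 4.78 CPM), and gave -0.18 (FDR = 0.58) in HL-60. CCAR2, whose protein binds and inhibits SIRT1, fell in 7 of 10 lines and rose in 0, from 235 to 160 CPM in F-36P (-0.56) at the most. HIC1, a repressor of SIRT1 transcription, rose in MOLM-13 (1.22) and NOMO-1 (1.95) and fell in F-36P (-0.71). In NOMO-1 it was at 0.22 CPM before treatment and entered the test through the treated libraries, which fixed a rise in advance.

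E2F1, a cell cycle factor, was in the list as a reported regulator of SIRT1 transcription. The SIRT1 window above held 0 matches to the E2F core, but a search for exact letters in so short a window cannot speak to binding. E2F1 rose in 6 lines, most in HL-60 (1.20), and fell in MOLM-13 (-1.01), MV-4-11 (-0.18) and OCI-AML3 (-0.34). These are the 3 lines with a negative SIRT1 estimate. MDM2, the p53 target that restrains p53, rose past 2-fold in the same 3 of the 10 lines, by 1.84 in MOLM-13, 1.11 in MV-4-11 and 2.59 in OCI-AML3, and lay between -0.33 in NB-4 and 0.65 in NOMO-1 elsewhere. For E2F1 the 3 lines differed from the other 7 by sign but did not form a separate group. MV-4-11 (-0.18) lay nearer to THP-1 (0.25) than to MOLM-13 (-1.01). In HL-60, with the largest E2F1 rise, SIRT1 was at 0.07. No correlation over all 10 lines is given. MDM2 was set beside SIRT1 after its values were seen, all 3 genes were measured in the same libraries, and no test was made. E2F1 was 1 of 12 listed regulators, and another of them, SENP1, went with SIRT1 in part. SENP1 fell in MOLM-13 (-0.69) and rose in KASUMI-1 (0.43), MONO-MAC-6 (0.48) and NOMO-1 (0.88). It gave 0.12 (FDR = 0.14) in MV-4-11, where SIRT1 fell, and rose in HL-60 (0.55). The 3 coding genes whose response was most like that of SIRT1 were KBTBD2 (r = 0.97), SANBR (0.97) and CENPJ (0.96), of 9548 compared.

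**Figure D4:**
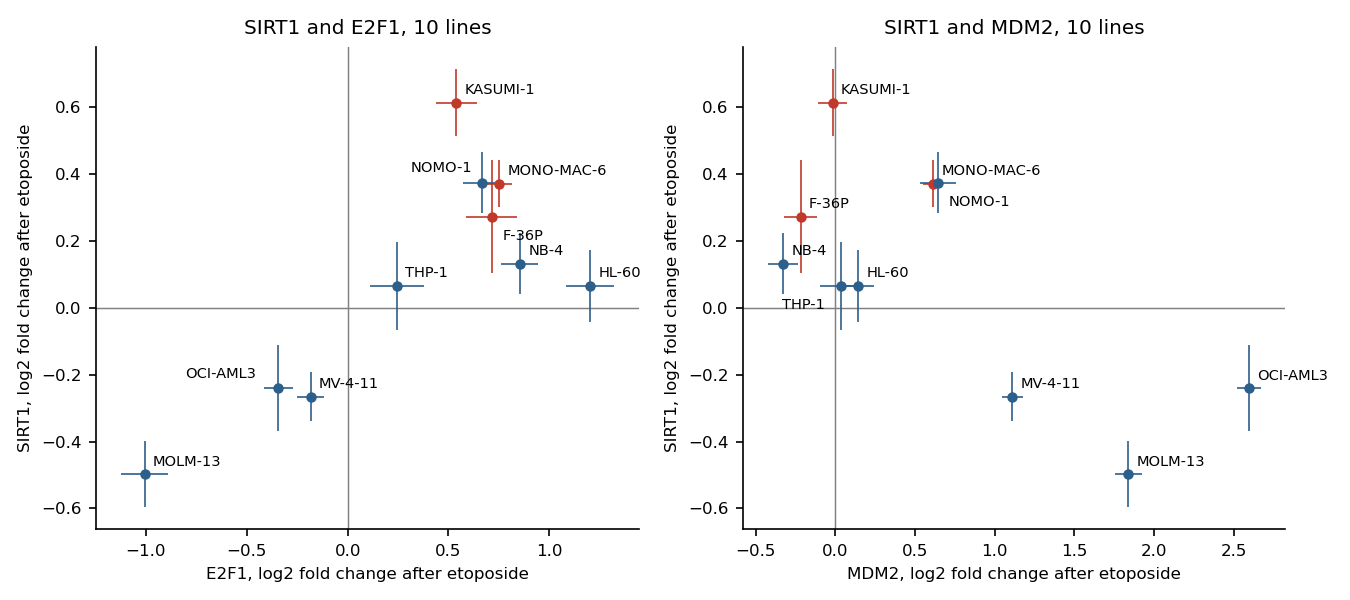
Log2 fold change after etoposide of SIRT1 (y axis) against that of E2F1 (left) and MDM2 (right) in 10 AML lines, with SE bars and the resistant lines in red. MOLM-13, MV-4-11 and OCI-AML3 combine a negative SIRT1 estimate with a fall of E2F1 and an MDM2 rise past 2-fold.

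Transcripts of sirtuin substrates and partners were set beside all gene and line pairs, of which 27.7% were higher and 24.4% lower. Of 230 pairs of a nuclear or cytosolic substrate and a line, 40.9% were lower and 15.2% higher, with a median of -0.15. MYBBP1A, a nucleolar partner of SIRT7, fell in 10 of 10 lines, from -0.39 in HL-60 to -2.15 in F-36P (148 to 33.3 CPM). CDC20, a mitotic substrate of SIRT2, fell in 9 lines, up to -1.63 in MV-4-11. TUBA1A, an alpha-tubulin whose acetyl lysine SIRT2 removes, rose in 4 lines and fell in 2, going from 4.53 to 142 CPM in F-36P (4.97).

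Of 115 pairs of a mitochondrial substrate and a line, 32.2% were lower and 15.7% higher, with a median of -0.11. Of all gene and line pairs, 24.4% were lower and 27.7% higher. IDH2, a SIRT3 substrate that supplies NADPH, rose in 7 lines, up to 1.20 in F-36P. OPA1, the fusion protein of the inner membrane, fell in 7, down to -1.13 in F-36P. OGG1, a base excision glycosylase, rose in 3 lines, among them KASUMI-1 (2.43 to 12.7 CPM, 2.38), and fell in OCI-AML3 (-0.30). SOD2, a further SIRT3 substrate, was not analysed here.

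**Figure D5:**
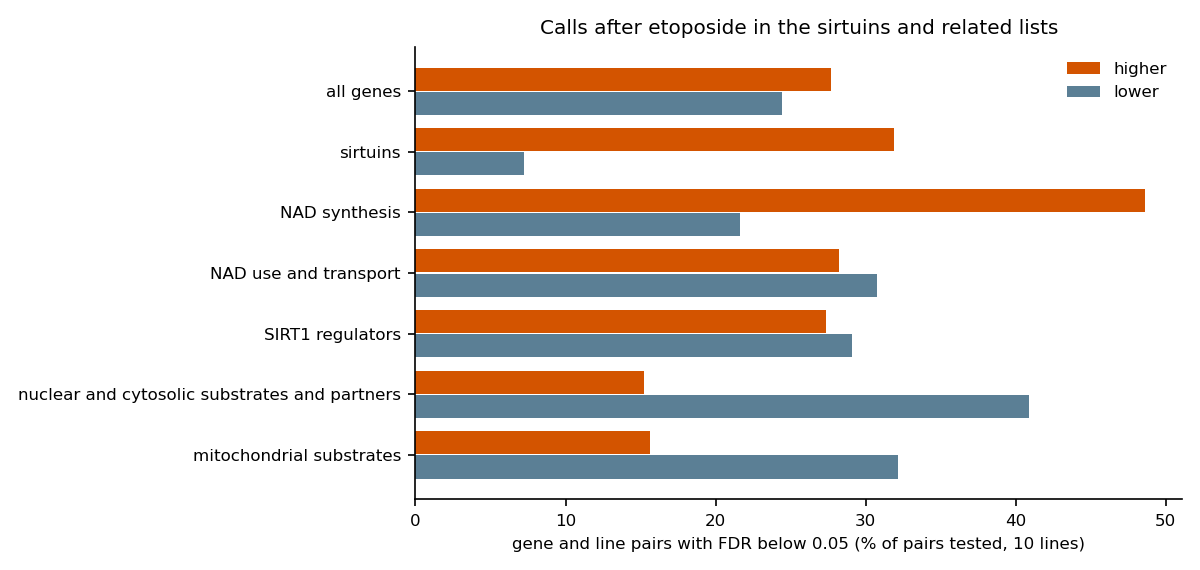
Share of gene and line pairs (x axis, % of the pairs tested over 10 lines) with an FDR below 0.05 after etoposide, higher in orange and lower in blue, for all genes, the 7 sirtuins and 5 related lists. Sirtuins had 31.9% higher and 7.25% lower pairs, NAD synthesis genes 48.6% and 21.6%, and all genes 27.7% and 24.4%.

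Markers of cell state moved in the same libraries. For each marker list the shares of all gene and line pairs were 27.7% higher and 24.4% lower. Of the 12 myeloid markers, 55.3% of pairs were higher and 19.4% lower, and the surface integrin ITGAM rose in 10 of 10 lines. The summed level of the myeloid markers is carried by single genes and does not follow these counts. In KASUMI-1, 7 of 11 tested markers rose and 3 fell, while the sum went from 27317 to 30538 CPM over 3 untreated libraries down to 14246 to 15734 CPM, of which MPO alone went from a mean of 27115 to 13145 CPM. In NB-4 the sum went from 15689 to 18422 CPM down to 4727 to 5286 CPM, MPO from 16521 to 4300 CPM. In MOLM-13 it went from 2450 to 3258 CPM up to 6341 to 7222 CPM, LYZ from 1817 to 5129 CPM. Of the 8 erythroid markers, 57.6% of pairs were lower and 12.1% higher, and their sum in F-36P went from 7384 to 8939 CPM down to 4609 to 4999 CPM. Of the 6 markers of other cells, 26 of 31 tested pairs were higher. In these lists some pairs met the read count minimum only through the treated libraries, which fixed a rise in advance. Examples are COL1A1 in NB-4 (0 to 2.11 CPM) and FCGR1A in F-36P (0.019 to 0.90 CPM). The summed level of the 6 markers of other cells after etoposide reached from 3.60 CPM in OCI-AML3 to 254 CPM in MONO-MAC-6. Up to 3 of the 6 were at 0 in every library of a line. The part of these shifts in the sirtuin changes was not tested.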

How the data were processed

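Per the labels and the study's methods, the authors checked reads with FastQC 0.11.5, aligned them to GRCh38.p7 (gencode release 25) by STAR 2.5.3a, which also counted reads per gene. The deposited values are raw counts, 1 column per library and unnormalized, with 58037 identifiers. The count column is not named in the sources used here. Reads were probably assigned by strand: an opposite-strand exon of gencode 44 covers 716 genes completely, and 470 of these had reads. Counting used gencode 25, and any read in any library sufficed, so the check does not settle this. The authors called changes with edgeR 3.20.1, asking for an FDR under 0.05 and more than a 2-fold change. The test used is not given in the sources used here.

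Here, 45 copies on the pseudoautosomal part of Y (0 reads) were left out, and names and positions came from gencode 44 for 56948 identifiers. Libraries of a group differed beyond counting noise (chi-square per degree of freedom at least 2.05). CPM, fold changes and p-values were computed from the counts in R 4.3.3 with edgeR 4.0.16 (filterByExpr, minimum count 10 and total 15, TMM, quasi-likelihood test, Benjamini-Hochberg over all genes tested), with CPM scaled inside each line for responses and across all 33 untreated libraries for the basal comparison. SEs are the log2 fold change over the root of F. Over lines, 1 value per line entered exact two-sided permutation or sign-flip tests (Python 3.11.15, numpy 2.4.6). Basal values were mean log2(CPM + 1). Alternatives used DESeq2 1.42.0, limma 3.58.1, other scalings and filters and left-out libraries. Scripts were tested on simulated data.

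The replicate numbers pair the libraries in MOLM-13, NB-4 and OCI-AML2, where both libraries of a number deviated together from the means of their groups, with r over 0.1 in all 3 pairs (lowest 0.182, 0.196 and 0.115). The members, gene lists and tests were chosen with earlier results of these data known. Named genes were the 7 sirtuins and, of each list, the 3 past FDR 0.05 and 2-fold in most lines, ties going to the larger change, with NAMPT and CCAR2 always, and for likeness the 3 highest r. NMNAT1, NMNAT3 and AFMID were named outside this rule. Promoters are RefSeq sequences on GRCh38.p14, with entries for 6 of 7 sirtuins. Libraries held 17997404 to 24101670 reads, and counts limit precision for SIRT4 above all. The IC50 classes are the study's.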

Additional observations from a re-analysis of the deposited data

Results flagged for a closer look

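The response of SIRT1 differed between resistant and responsive lines by 0.47 (log2, exact permutation p = 0.0333, adjusted p = 0.25 over 10588 genes), with a positive estimate in 3 of 3 resistant and 4 of 7 responsive lines. It passed the test as higher in KASUMI-1, MONO-MAC-6 and NOMO-1 only.

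Responses of 5 sirtuins differed between the 10 lines in the interaction test of edgeR, which 74.5% of all genes passed. The F values were 15.5 for SIRT7, 9.18 for SIRT1, 4.88 for SIRT2, 4.54 for SIRT3 and 4.29 for SIRT5. SIRT7 fell in 3 lines and rose in NB-4, and SIRT1 fell in 2 lines and rose in 3. SIRT2 differed in size alone, its 10 estimates being of 1 sign.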

How the results depend on the processing

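Of 27 called pairs of a sirtuin and a line, 22 passed under every alternative run for them (14, or 13 for SIRT4, which the filter at 5 CPM removes) and 5 were lost under at least 1. A further 13 pairs passed under at least 1 alternative only. The count of higher pairs (22) ranged from 19 with DESeq2 to 28 with library size scaling, and from 19 to 25 without single replicates. The count of lower pairs (5) ranged from 4 to 7. With the 2-fold minimum they became 2 and 0, and without F-36P, chosen after the data were seen, 21 and 5. The replicate block gave 24 and 5. It moved SIRT3 in MONO-MAC-6 (0.21, FDR = 0.0311) and SIRT6 there (0.28, FDR = 0.000545) past the threshold and SIRT4 in OCI-AML3 (0.71, FDR = 0.0542) below it, and SIRT3 in NB-4 past it. MONO-MAC-6 lies at the edge of the pairing rule, with correlations of same-numbered libraries of 0.398, 0.313 and 0.063, and was taken as unpaired, as was OCI-AML3. It changed no other call.

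Between resistant and responsive lines, the SIRT1 difference was 0.54 (exact p = 0.11) without F-36P and 0.46 to 0.47 without single replicates (0.47, exact p = 0.0833, without replicate 1). Differences near 0 changed sign: SIRT2 to -0.022 without F-36P and -0.012 to 0.050 without single replicates, SIRT3 to -0.0084 with RLE and -0.070 to 0.083 without single replicates, SIRT5 to 0.042 with library size scaling, and SIRT6 to -0.036 to 0.074 without single replicates. For basal levels, SIRT7 turned to 0.32 without F-36P, 0.0088 without OCI-AML2 and -0.071 to 0.014 without single replicates, and SIRT6 to -0.097 to 0.034.

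The mean response of SIRT3 passed with library size scaling (0.28, exact permutation p = 0.00977) and without F-36P (0.21, exact permutation p = 0.0273), and that of SIRT5 with library size scaling (0.17, exact permutation p = 0.0332). That of SIRT6 no longer passed with OCI-AML2 (0.086, exact permutation p = 0.0781), with limma (0.11, p = 0.0929) or without replicate 2 or 3 (range 0.079 to 0.15 without single replicates). The difference of the SIRT4 response between lines passed with library size scaling (F = 2.42, FDR = 0.0314). The causes were not tested. Depth limits SIRT4 above all.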
